A study of Mus musculus with 4 samples.

Results

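The genes described here encode the proteins of the cytosolic ribosome. They were taken by name, as every gene on chromosomes 1 to 19 whose symbol is Rpl or Rps followed by a number, with an optional ending such as a or l1, together with Rpsa, Rplp0, Rplp1 and Rplp2. This rule found 84 of the 49671 genes in the files, 49 of the large subunit and 35 of the small subunit, and it used no measured value. In the GENCODE M21 annotation 79 of them are protein coding and 5 are rows of a pseudogene type (Rps4l, Rps12l1, Rpl6l, Rps3a2 and Rps3a3). The rule left out 4 X-linked ribosomal protein genes (Rps4x, Rpl10, Rpl36a and Rpl39) and genes with other names, such as Fau and Rack1.

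RNA was measured in T cells of 4 female F1 mice, 1 library per mouse. The mothers were C57BL/6 mice with a heterozygous deletion of Xist, and the fathers were Mus musculus castaneus (Castaneus below). The sources used here do not say which daughters inherited the deletion, nor how old the mice were. CD3+ T cells were purified from the spleen by column and stimulated for 48 hours by an antibody to CD3 fixed to the plate (1 µg/ml) and one to CD28 in solution (10 µg/ml), which replace the signals of antigen and costimulation. All 4 cultures also held 2.5 µM IMD-0354, which inhibits the kinase IKKβ and thereby NF-κB signalling, so all samples form 1 group and no condition can be compared. Unstimulated cells and stimulated cells without the inhibitor were not analysed here. Because both alleles of an autosomal gene share 1 nucleus in a hybrid, a difference between them within an animal was the comparison that the design allowed. The Castaneus allele always came from the father and the C57BL/6 allele from the mother. An effect of strain and one of parent of origin therefore cannot be told apart in any ratio below.

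A ribosome carries 1 copy of nearly every protein of its small subunit, which reads the mRNA, and of its large subunit, which joins amino acids and holds the exit tunnel of the new chain. The genes are scattered over the chromosomes and are expressed in every nucleated cell. Their mRNAs typically begin with a cytosine followed by a run of pyrimidines, the TOP motif (terminal oligopyrimidine), through which the mTOR kinase and Larp1 adjust their translation. T cells build many new ribosomes when they leave rest and begin to divide.

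RefSeq (GRCm38.p6, the build of the mm10 genome) gave the promoter sequence of 59 of the 84 genes, from 250 bases before to 50 bases after the annotated start. A run of at least 5 pyrimidines that begins with a C exactly at that start, read on the strand of the gene, stood in 13 of these 59 (22.0%), compared with 3.01% of the 27025 genes with such a window and 3.11% of the 7502 that also averaged 1 RPKM or more. RPKM is the read number per kilobase of gene, scaled to the size of the library. An annotated start that is off by a base or 2 breaks this match, so a gene without one may still have a TOP mRNA. The 3 genes with the run whose alleles differed beyond 1.5-fold, as described below, are shown first, followed by the longest run, in Rpl15, and that of Rpl38. Each stretch has 15 bases before the start and 15 from it, 5′ to 3′, and the capitals mark the run of pyrimidines from the start.
Rps6: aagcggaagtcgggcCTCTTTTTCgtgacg
Rpl35a: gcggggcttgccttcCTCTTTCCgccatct
Rpl14: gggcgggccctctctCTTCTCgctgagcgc
Rpl15: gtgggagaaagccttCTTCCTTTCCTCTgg
Rpl38: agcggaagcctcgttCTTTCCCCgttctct
These stretches lie at chr4:86857353-86857382 on the minus strand for Rps6, chr16:33056467-33056496 on the plus strand for Rpl35a, chr9:120571502-120571531 on the plus strand for Rpl14, chr14:18270972-18271001 on the minus strand for Rpl15 and chr11:114668565-114668594 on the plus strand for Rpl38. They are the reference sequence, which is that of C57BL/6J. The Castaneus sequence was not analysed here. Among the 300-base windows, the letters CCGGAAG, a core to which Ets factors bind, occurred on either strand in 25 of the 59 (42.4%), in 9.93% of all genes and in 23.6% of genes with at least 1 RPKM. AAGATGG, the core of a YY1 motif, occurred in 10 (16.9%), in 7.28% of all genes and in 9.22% of genes with at least 1 RPKM. TATAA occurred in 15 (25.4%), below the 27.99% of all genes and above the 15.2% of genes with at least 1 RPKM. All were counted on both strands. The 13 genes with a run of pyrimidines at the start had a median of 251 RPKM, and the 43 with a window, at least 1 RPKM and no such run had 246 RPKM.

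Across the whole data set, allelic reads (reads that carry a variant and could be given to C57BL/6 or Castaneus) numbered 30539711 to 34992012 per replicate, and the autosomes together read 49.6% ± 0.0870 (SD, n = 4) from Castaneus. The 10 markers of T cells on the list, among them Cd3d, Cd3e and Trac, all reached a mean of 1 RPKM and summed to 522 to 591 RPKM per replicate. Marker sums of other cells were 4.61 to 10.5 RPKM for B cells (5 genes), 20.8 to 82.6 for myeloid cells (5 genes), 3.51 to 4.55 for NK cells (3 genes) and 0.845 to 4.03 for erythroid cells (3 genes). In such bulk RNA, a change in the number of cells of a type and a change in the RNA of each cell cannot be told apart. The libraries are labelled as biological replicates, so p-values measure the spread between 4 animals.

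Ribosomal protein genes were among the most abundant mRNAs of these cells. Of the 84 genes, 78 had a mean of at least 1 RPKM (45 of the large and 33 of the small subunit), 68 of at least 100 RPKM and 11 of at least 1000 RPKM. The top 1% of the 11453 genes with at least 1 RPKM, which began at 207 RPKM, held 115 genes, and 52 of these were ribosomal protein genes. Together the 79 protein coding members of the set took 17.9%, 15.7%, 18.2% and 19.8% of the RPKM summed over protein coding genes in replicates 1 to 4. The mean was 17.9% ± 1.67 (SD, n = 4). Replicate 2 was the lowest and replicate 4 the highest.

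The 2 subunits had nearly the same summed level. The 49 genes of the large subunit summed to 16896, 16450, 18508 and 21159 RPKM in replicates 1 to 4 (18253 ± 2129), and the 35 of the small subunit to 16923, 15989, 18661 and 21458 RPKM (18258 ± 2404). The ratio of small to large was 1.00, 0.972, 1.01 and 1.01 (0.999 ± 0.0187, SD, n = 4), so both sums moved together from animal to animal. Single genes did not share this balance. Among genes with at least 1 RPKM the large subunit had a median of 260 RPKM, with quartiles of 183 and 493 RPKM and a range of 2.43 to 2240 RPKM. The small subunit had a median of 321 RPKM, with quartiles of 132 and 817 RPKM and a range of 2.50 to 2233 RPKM.

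**Figure D1:**
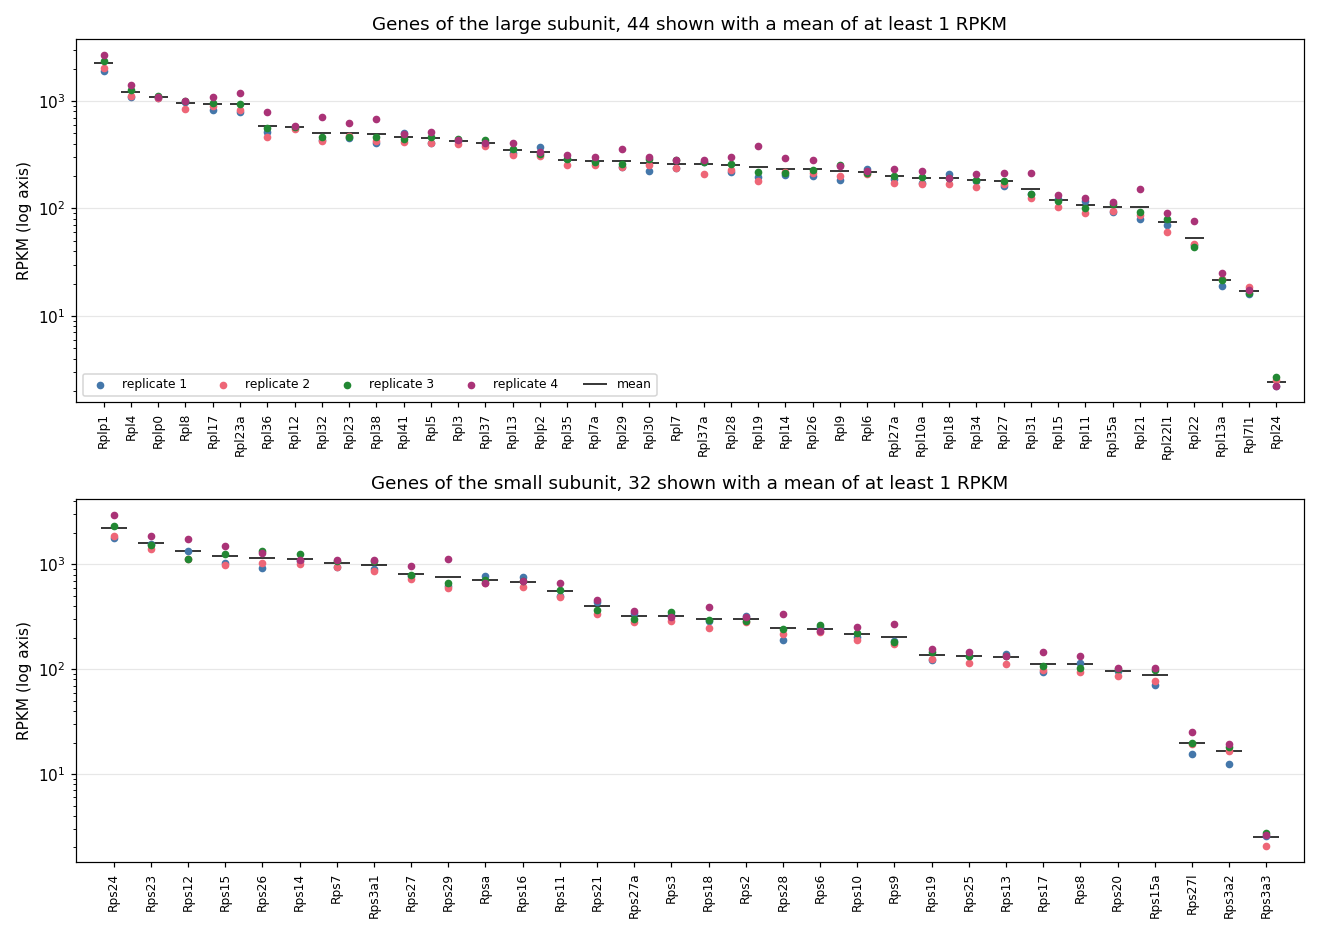
RPKM (log axis) of 76 ribosomal protein genes at a mean of 1 RPKM or more, large subunit above and small subunit below, ordered by mean; points are the 4 replicates and the bar is their mean. Most genes lie between 100 and 1000 RPKM in both subunits, the lowest are Rpl24 and Rps3a3, and the points of replicate 4 are often the highest.

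In the large subunit the highest gene was Rplp1, an acidic protein of the stalk that recruits elongation factors, with 1917, 2006, 2379 and 2657 RPKM in replicates 1 to 4. Rpl4, whose protein lines the exit tunnel, followed with 1078, 1112, 1273 and 1410 RPKM. These 2 genes did not overlap. Rplp0, the scaffold of the stalk (1079 ± 22.1 RPKM), and Rpl8 (952 ± 77.4) were also high. The ranges of Rpl4 and Rplp0 overlapped, and Rpl8 lay below Rplp0 in all 4 replicates. Rplp2, which pairs with Rplp1 in the stalk, stood lower at 335 ± 27.0 RPKM (SD, n = 4). In the small subunit Rps24 had 1764, 1880, 2340 and 2947 RPKM and Rps23, whose protein sits at the decoding centre, 1548, 1414, 1541 and 1845 RPKM. The ranges of Rps24 and Rps23 overlapped. Rps12 (1332 ± 285 RPKM), Rps15 (1190 ± 227) and Rps26 (1148 ± 206) followed with overlapping ranges as well.

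Most of the lowest genes with at least 1 RPKM were of 3 kinds. The first were paralogs of a standard protein, low beside their partners in 2 of 3 cases: Rpl7l1 had 17.1 ± 1.25 RPKM beside 260 ± 26 for Rpl7, Rps27l had 20.02 ± 3.97 beside 817 ± 110 for Rps27, and Rpl22l1 had 75.1 ± 12.7 beside 53.2 ± 15.98 for Rpl22. Rpl22l1 was the only one of these 3 not below its partner, with 69.9, 60.7, 79.2 and 90.4 RPKM against 45.7, 46.5, 43.5 and 77.1 RPKM. It was higher in each of the 4 replicates, though the 2 ranges overlapped. Rpl22 is needed for the development of αβ T cells. Rpl3l, known from muscle, and Rpl10l and Rpl39l, known from testis, were at 0 RPKM in all 4 replicates, and the pseudogene-type rows Rps4l, Rpl6l and Rps12l1 were at 0.120, 0.426 and 0.611 RPKM.

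Genes whose rows overlap another gene made up the second kind. Rpl24 was at 2.24, 2.54, 2.703 and 2.23 RPKM, and 47.0% of its annotated exon length is shared on the same strand with Gm28037, annotated as a processed transcript. Rpl13a, a protein released from the ribosome in the control of inflammatory mRNAs, was at 21.8 ± 2.45 RPKM with 35.4% of its exon length shared with Gm45713 and 2 small RNA genes. The sources used here do not say whether reads in shared exons were discarded, so the values of these 2 genes may lie below their expression. The third kind were the rows of pseudogene type, Rps3a3 (2.50 ± 0.292 RPKM) and Rps3a2 (16.7 ± 3.02). Also among the 5 lowest of the small subunit were the standard genes Rps15a (87.6 ± 15.3 RPKM) and Rps20 (97.2 ± 7.65). Of the 78 genes, 77 share at least one 50-base stretch of transcript with another annotated gene, and the median gene shares 51.5% of its stretches (up to 98.6% in Rps27). Levels are uncertain to the extent that reads of such stretches were split or dropped. Across the 78 genes the Spearman correlation of level with the shared part was -0.075, a description over genes that share the same libraries.

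Levels were ranked alike in all 4 animals (Spearman 0.975 to 0.996 between replicates across the 78 genes). The median coefficient of variation over replicates was 12.7%, and 11.4% over all 11453 genes. Rplp0, often used as a reference gene, had the lowest, 2.05%, with 1061, 1059, 1102 and 1095 RPKM. Rpl12 (2.67%), Rpl3 (4.22%), Rpl6 (4.82%) and Rpl37 (5.29%) were also steady. Rpl19, whose protein helps bridge the subunits, had the highest, 37.8%, with 197, 180, 220 and 382 RPKM. Rps29 (33.8%), Rpl21 (31.9%), Rpl22 (30.05%) and Rpl32 (27.3%) followed, and in each of these genes the highest value was that of replicate 4.

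Replicate 4 stood out across the set. It held the highest RPKM of 57 of the 78 genes (73.1%), where it held the highest of 20.8% of all 11453 genes, of 46.0% of the 163 other genes with at least 100 RPKM and of 7 of the 10 T cell markers. Its RPKM divided by the mean of the other 3 replicates had a median of 1.21 (range 0.892 to 1.91) in ribosomal protein genes, compared with 1.00 in all genes and 1.07 in those 163 other genes. The ratio was over 1.5 in 9 of the 78 (2.81% of all genes) and under 1 in 7. Replicate 2 held the lowest value of 46 of the 78, and of 15.3% of all genes. With RPKM rescaled to the same sum over all genes in each replicate, replicate 4 was highest for 43 of the 78 (8.45% of all genes), and with protein coding genes only for 40 (9.56%).

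The median ratio of replicate 4 to the others was larger in classes with less annotated exon length. This length covers all annotated transcripts of a gene and can exceed that of its main transcript, as in Rps19 (4685 against 774 bases). It was 1.38 in the 11 ribosomal protein genes with under 1000 bases of exon, 1.21 in the 27 with 1500 to 2500 bases and 1.14 in the 6 with at least 4000 bases. In the same length classes other protein coding genes had medians of 1.09, 0.996 and 1.00. Mitochondrial ribosomal proteins (78 Mrpl and Mrps genes, median 6.34 RPKM), which build the separate ribosome of mitochondria, had a median ratio of 1.05. Other genes with TOP mRNAs (16, among them the elongation factors Eef1a1 and Eef2 and the nucleolar chaperone Npm1) had 1.13, with replicate 4 highest in 10 of 16. The 19 genes of control and assembly on the list (among them Mtor, Larp1, Eif4ebp1 and the assembly factor Tsr1) had 1.01, with replicate 4 highest in 5. Myeloid markers moved the opposite way, with 51.4, 82.6, 30.5 and 20.8 RPKM in replicates 1 to 4, lowest where the ribosomal protein genes were highest and highest where they were lowest. Lyz2 made up most of that sum, with a mean of 41.3 ± 24.6 RPKM (SD, n = 4). The sum of T cell markers was 523, 537, 522 and 591 RPKM. The part of exon length, transcript length or cell makeup in the difference between replicates was not tested.

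**Figure D2:**
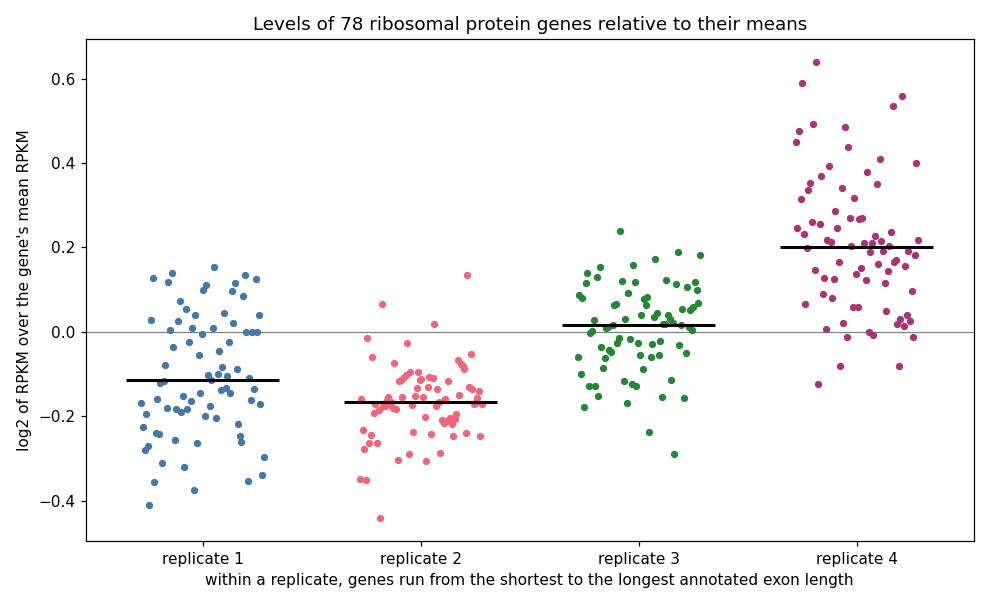
RPKM of each of the 78 ribosomal protein genes in each replicate over the mean of that gene, on a log2 scale, with genes ordered by annotated exon length within a replicate and black bars at the medians. Most points of replicate 4 lie above 0 and most of replicate 2 below, and the highest values of replicate 4 include the shortest genes at its left edge.

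The 2 alleles of many ribosomal protein genes were read unequally, and in the genes called the side of the autosomal ratio was the same in every animal. For each gene with a mean of at least 20 allelic reads and 1 RPKM, edgeR's quasi-likelihood test compared the Castaneus with the C57BL/6 reads of the same animals against an equal ratio. Of 74 ribosomal protein genes tested, 50 differed at an FDR of 5% (67.6%), as did 28.1% of the 10268 autosomal genes tested. In 26 the Castaneus allele gave more reads (background 12.4%) and in 24 the C57BL/6 allele (background 15.6%). All 50 lay on the same side of the autosomal ratio in 4 of 4 animals. The calls rest on the same animals, so this is no separate support for them. Without the pairing of the 2 alleles by animal, 17 genes were called in each direction. A ratio beyond 1.5-fold, tested against that bound, was called in 21 of the 74 (10 toward Castaneus, 11 toward C57BL/6), compared with 7.67% of autosomal genes (4.08% and 3.59%).

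The share of genes called was higher in deeply read genes, as most ribosomal protein genes are. Among genes with a mean of at least 5000 allelic reads, 46 of 52 ribosomal protein genes were called against 47.1% of 1551 autosomal genes, and 19 were beyond 1.5-fold against 6% of them. With at least 20000 reads, 30 of 36 were called against 71.1% of 173 genes, and 12 were beyond 1.5-fold against 15%. The 1551 and 173 autosomal genes include the 52 and 36 ribosomal protein genes themselves. Of the 22 tested with fewer than 5000 reads, 4 were called, beside 28.1% of the 10268 autosomal genes tested at any depth. The median size of the log2 ratio was 0.37 in the 74 genes and 0.26 in all autosomal genes tested, and at 5000 reads or more it was 0.45 and 0.16.

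**Figure D3:**
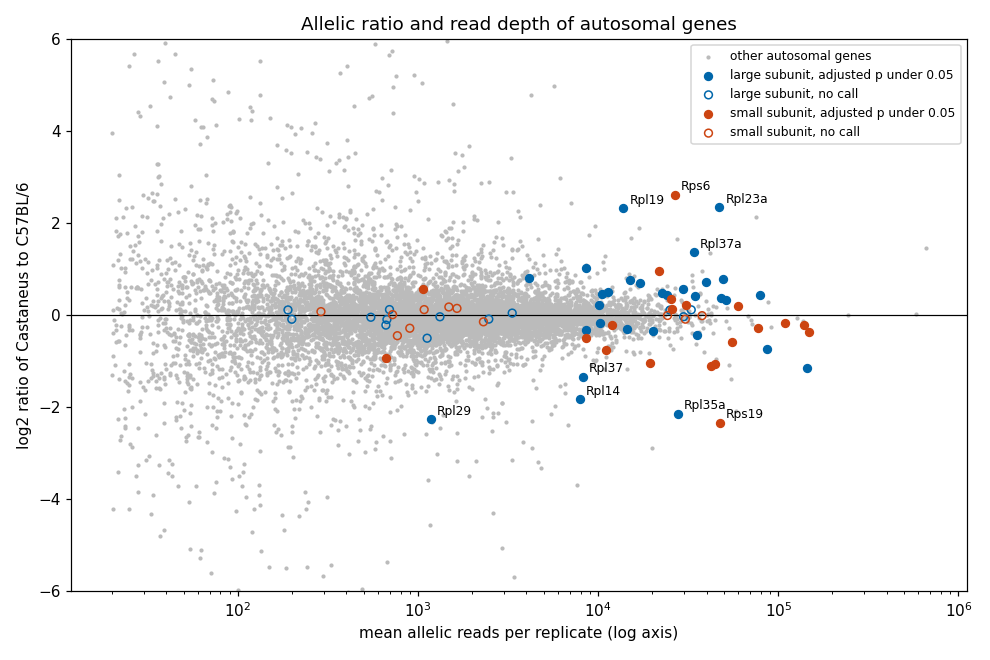
Log2 ratio of Castaneus to C57BL/6 reads against mean allelic reads per replicate (log axis) for the autosomal genes tested, with ribosomal protein genes in colour, filled where the adjusted p is under 0.05; 155 other genes lie beyond 6 on either side. Most ribosomal protein genes sit at the deep end, where most other genes are near 0, and those named have ratios beyond 1.3 on the log2 scale in either direction.

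Toward Castaneus, the largest ratio was that of Rps6 (chr4:86854660-86857412 in mm10, as are the positions below), whose protein is the classic target of the S6 kinases. Its Castaneus share of allelic reads was 85.9%, 85.9%, 86.2% and 84.6% in replicates 1 to 4, a log2 ratio of 2.60 ± 0.04 (SE, adjusted p = 1.4e-11). Its 4 shares lie within 2 points of each other. Rpl23a (chr11:78180932-78183584), whose protein sits at the mouth of the exit tunnel, had shares of 86.0%, 84.2%, 83.0% and 79.2% (2.33 ± 0.09, adjusted p = 9.1e-09). Rpl19 (chr11:98026710-98030492) had 83.0%, 83.3%, 85.3% and 80.4% (2.32 ± 0.07, adjusted p = 3.1e-09). These 3 genes overlapped in their shares and were apart from all others on the Castaneus side. Rpl37a, a small zinc-binding protein, followed with 70.4%, 71.4%, 70.6% and 74.0% (1.36 ± 0.04, adjusted p = 3.8e-09).

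Rpl5, which joins the 5S RNA and can hold back Mdm2, had shares of 64.6%, 64.8%, 64.3% and 71.6% (log2 ratio 1.01 ± 0.08, adjusted p = 5.3e-06). Replicate 4 lay above the other 3, and without the pairing of the alleles by animal the adjusted p was 0.104, the highest of 12 alternative fits, the other 11 of which called the gene. Rps29 (65.6% ± 1.18), Rpl13a (63.3% ± 1.89), Rpl27 (62.3% ± 0.228) and Rpl27a (61.9% ± 1.16; SD, n = 4) followed, with log2 ratios of 0.72 to 0.96. Each of these 4 was above 60% in every animal. Rpl11, which acts with Rpl5 in the 5S particle, was read at 48.0% ± 3.98 and was not called (adjusted p = 0.586).

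Toward C57BL/6, the largest ratio was that of Rps19 (chr7:24884371-24889806), the gene most often mutated in Diamond-Blackfan anaemia. Its Castaneus share was 14.9%, 16.8%, 16.2% and 16.8%, a log2 ratio of -2.35 ± 0.04 (adjusted p = 1.4e-11). Rpl29 (chr9:106429454-106431568) had 18.5%, 24.98%, 10.4% and 16.3% (-2.27 ± 0.22, adjusted p = 2.1e-05), a wider spread on a mean of 1180 reads. Rpl35a (chr16:33056453-33060189) had 17.1%, 16.4%, 20.9% and 18.1% (-2.16 ± 0.06, adjusted p = 1.5e-09). The 3 genes overlapped in their shares.

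Rpl14 (chr9:120571444-120574654) had shares of 17.4%, 21.0%, 21.8% and 27.0% (log2 ratio -1.83 ± 0.11, adjusted p = 3.5e-07), and Rpl37 had 26.8%, 26.8%, 26.8% and 31.1% (-1.35 ± 0.07, adjusted p = 1.2e-07). Rplp0, with a mean of 144881 allelic reads, had the tightest shares of all called genes: 30.8%, 30.6%, 31.0% and 30.7% (-1.15 ± 0.02, adjusted p = 9.7e-12). The steadiest gene in level was also steady in its unequal alleles. Rps15 (31.2% ± 2.20), Rps2 (32.1% ± 1.32) and Rps26 (32.2% ± 1.42; SD, n = 4), all of the small subunit, had log2 ratios of -1.12 to -1.05. Rps23 was read at 31.8%, 25.3%, 34.6% and 45.1% on a mean of only 666 allelic reads (-0.94 ± 0.23, adjusted p = 0.00966), and without replicate 1 the adjusted p was 0.0685. Of 12 alternative fits 10 called Rps23, with adjusted p from 0.000388 to 0.213.

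**Figure D4:**
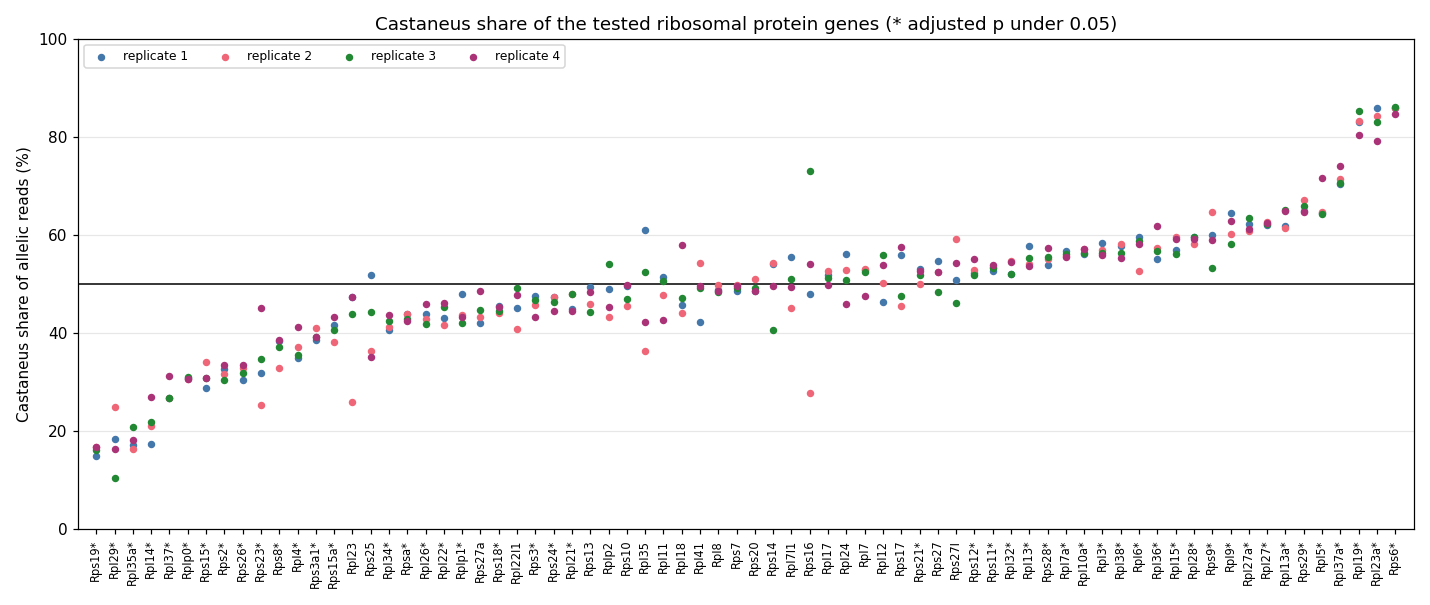
Castaneus share of allelic reads (%) of 72 tested ribosomal protein genes in each of the 4 replicates, ordered by mean share, with * for an adjusted p under 0.05. Shares run from about 16% in Rps19 to about 86% in Rps6, replicates lie close together at both ends, and the genes with wide spread near 50% are those with few allelic reads, such as Rps16 and Rpl35.

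The 24 genes without a call fell into 2 kinds. In 18 of them the mean was under 5000 allelic reads, and their precision varied widely. Rps16, the least precise, had shares of 48.0%, 27.8%, 73.1% and 54.1% on a mean of 289 reads (SE of the log2 ratio 0.43), whereas Rps13 had an SE of 0.10 on a mean of 2308 reads. The other 6 had more than 20000 reads, and their mean shares lay between 48.0% and 51.5%. Rps7 was read at 49.3% ± 0.546, Rpl8 at 48.9% ± 0.655, Rps20 at 49.3% ± 1.18, Rps10 at 48.0% ± 2.08, Rpl17 at 51.4% ± 1.26 and Rpl7 at 51.5% ± 2.60 (SD, n = 4). Rpl17 was called toward Castaneus in 2 of 12 alternative fits, TMM and DESeq2 (adjusted p from 0.000267 to 1 over the 12). Rpl7 was lower in replicate 4 (47.6%) than in the others (52.4% to 53.1%), and without that replicate it was called toward Castaneus (adjusted p = 0.00774), as in 4 of 12 alternative fits in all (adjusted p up to 1). Of the paralogs, Rpl7l1 (50.3% ± 4.29), Rps27l (52.6% ± 5.48) and Rpl22l1 (45.7% ± 3.62) had no call, whereas Rpl22 (44.1% ± 2.06) was called toward C57BL/6 (log2 ratio -0.32 ± 0.06, adjusted p = 0.00247), with a call that was lost without the pairing of alleles (adjusted p = 0.447) and kept in 10 of 12 alternative fits (1.5e-05 to 1).

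The genes with the most allelic reads showed small as well as large differences. Rpsa, the small subunit protein also known as the laminin receptor, had 43.9%, 43.8%, 42.8% and 42.4% on a mean of 148196 reads (log2 ratio -0.37 ± 0.02, adjusted p = 1.7e-07). Rps3, which lines the mRNA entry channel, had 47.6%, 45.7%, 46.7% and 43.2% (-0.22 ± 0.03, adjusted p = 0.000524), and Rps24 had 47.4%, 47.3%, 46.3% and 44.5% (-0.19 ± 0.03, adjusted p = 0.000464). Rps3 and Rps24 lost their calls without the pairing of alleles (adjusted p = 0.196 and 0.375) and kept them in 10 of 12 alternative fits, with adjusted p from 1.6e-14 to 1 and from 2.9e-10 to 1. Rpl4 had 34.97%, 37.2%, 35.6% and 41.2% (-0.73 ± 0.05, adjusted p = 1.2e-06).

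By subunit, the large subunit held 19 calls toward Castaneus, 11 toward C57BL/6 and 13 genes without a call, and the small subunit 7, 13 and 11. In all, 69.8% of the large and 64.5% of the small subunit genes tested were called. Over all autosomal genes tested it was 28.1% (12.4% toward Castaneus and 15.6% toward C57BL/6). Summed over genes, the large subunit was read at 51.1%, 50.2%, 50.6% and 51.2% from Castaneus (50.8% ± 0.481, SD, n = 4) and the small subunit at 45.2%, 45.0%, 44.5% and 44.9% (44.9% ± 0.288). The ranges did not overlap, but the sums rest on few genes: without Rplp0, its most deeply read gene, the large subunit stood at 54.1%. The mean of the members' own shares in the small subunit was 46.8%. The set as a whole, with strong ratios in both directions, was read at 47.9% ± 0.311.

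Most neighbouring genes were read near equality. For the 21 genes beyond 1.5-fold, the nearest gene on each side with at least 200 allelic reads was between 40% and 60% Castaneus in 39 of 42 cases (median 50.1%). The exceptions were Gm9844 beside Rps19 (85.1%), Dusp7 beside Rpl29 (27.7%) and Cacnb1 beside Rpl19 (28.1%), of which only Dusp7 leaned the same way as the ribosomal protein gene. Medians of all such genes within 500 kb ranged from 43.4% to 55.3%.

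Calls were made in genes with little and with much sequence shared with other genes. Of the 38 tested genes with under 50% of their 50-base stretches shared, 26 were called (11 toward Castaneus, 15 toward C57BL/6), and of the 36 with at least 50% shared, 24 were called (15 and 9). The median size of the log2 ratio was 0.34 and 0.39 in these 2 classes, and the Spearman correlation of size with the shared part was 0.17 over 74 genes, given as a description. The 3 largest ratios toward Castaneus were all in genes with much shared sequence (84.6% of stretches in Rps6, 85.7% in Rpl23a and 79.3% in Rpl19), and in the 3 largest toward C57BL/6 the shared part was 43.2% in Rps19, 66.8% in Rpl29 and 51.3% in Rpl35a. The part of reads from such other genes in these ratios was not tested.

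Allelic reads were missing or few for some abundant genes. Rpl31 (151 RPKM) and Rpl30 (266 RPKM) had 0 allelic reads in all 4 replicates, as had Rps3a2, Rps3a3 and the 6 genes under 1 RPKM, so 10 of the 84 have no share. Among the 74 tested genes the number of allelic reads for each RPKM ran from 0.419 in Rps23 to 433 in Rps3, with a median of 48.9. A gene can only yield allelic reads where a variant between the strains lies in its transcript, and which variants were used is not stated in the sources at hand.

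Of the ribosomal genes outside the naming rule, Fau, whose product is cut into a ubiquitin-like protein and a small subunit protein, was read at 74.2%, 70.0%, 70.1% and 71.4% from Castaneus (log2 ratio 1.35 ± 0.05, adjusted p = 6.4e-09). Rack1, a scaffold on the small subunit, was read at 50.4% ± 0.476. The X-linked Rps4x was read at 0.0217% ± 0.00536 from the paternal Castaneus X on a mean of 73203 reads, and Rpl10 at 0.913% ± 0.902 (SD, n = 4). The X-linked Rpl36a went the opposite way, at 100% from Castaneus in all 4 replicates. It had a mean of only 26.5 allelic reads at a level of 111 RPKM, and whether these reads were given to the right allele was not tested. Rpl39 had 0 allelic reads. In the comparison lists, 17 of 76 mitochondrial ribosomal protein genes tested were called (22.4%, 7 toward Castaneus, 10 toward C57BL/6), with a summed share of 49.8% ± 0.411. The background for all these lists, over the 10268 autosomal genes tested, was 28.1% called (12.4% toward Castaneus, 15.6% toward C57BL/6). Of the 16 other TOP genes tested, 4 were called in each direction, with Npm1 toward C57BL/6 (32.9% ± 2.46) and Eef1b2 toward Castaneus (60.1% ± 1.48). Of 16 genes of control and assembly tested, Rptor was called toward Castaneus and Larp4 toward C57BL/6.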

How the data were processed

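RNA of 4 libraries was described by 2 deposited tables of 49671 genes. Per the file headers, one holds raw read counts of each allele as deposited, and the other RPKM that the authors computed without splitting alleles. The submitters' processing notes name STAR 2.7.1a, featureCounts and mm10, and the labels name a stranded kit for total RNA that removes ribosomal RNA. The assignment of reads to alleles, the use of strand and the gene length and total behind RPKM remain unstated in the sources used. No other columns of samples were present.

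The members and lists were chosen with earlier results of these data known. Allele counts were fitted with edgeR 4.0.16 (R 4.3.3; glmQLFit, glmQLFTest) with a replicate block, because the alleles of a pair come from 1 animal, and the autosomal total of each allele as library size. Deviations of the alleles of 1 replicate correlated at 0.157, 0.0883, 0.106 and 0.198. Genes needed a mean of 20 allelic reads and 1 RPKM. P-values are two-sided with Benjamini-Hochberg adjustment over 10268 autosomal genes, at an FDR of 5%, and glmTreat tested ratios beyond 1.5-fold. SE is the log2 ratio over the root of F. Fits were tested on simulated data. Genes named are the 5 highest and lowest in level per subunit, the 5 most and least variable, the 10 largest ratios per direction, the 5 with most allelic reads, paralogs and members without allelic reads; others are given where a sentence needs them. Values of 2 members are counted in totals but not reported here one by one. Alternatives were TMM, DESeq2 1.42.0, other filters, unscaled totals, no block, an FDR of 1% and leaving out each replicate. Reads may be copies of 1 molecule, so binomial error would be too small and tests rest on the spread between animals. Transcript sharing and positions came from GENCODE M21, which held 49326 of the gene IDs. Other steps used Python 3.11.15, numpy 2.4.6, pandas 2.3.3 and matplotlib 3.10.9.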

Additional observations from a re-analysis of the deposited data

Results flagged for a closer look

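Among 86 values examined over the 4 replicates, which are sums by subunit and levels and shares of the genes named by rule, 11 had 1 replicate far from the other 3 (a gap to the nearest above Dixon's critical share of the range), where chance gives about 1 in 20. Those genes include the 5 most variable in level, of which Rps29, Rpl21, Rpl22 and Rpl32 are among the 11, so the count cannot be read against that rate. Of 7 such levels, 6 were highest in replicate 4: Rpl14 at 295 RPKM (others 206 to 217), Rpl21 at 152 RPKM (80.5 to 92.3), Rpl22 at 77.1 RPKM (43.5 to 46.5), Rpl29 at 354 RPKM (242 to 258), Rpl32 at 714 RPKM (423 to 465) and Rps29 at 1133 RPKM (591 to 666). Rpl37a was low in replicate 2, at 208 RPKM (others 269 to 280).

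The 4 Castaneus shares that stood apart were all of replicate 4. Rpl37 was at 31.1% (others 26.8%), Rpl5 at 71.6% (64.3% to 64.8%), Rpl7 at 47.6% (52.4% to 53.1%) and Rps6 at 84.6% (85.9% to 86.2%). In Rpl5 the share lay farther from 50% than in the other animals, in Rpl37 and Rps6 nearer to it, and in Rpl7 on the other side of it.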

How the results depend on the processing

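Calls toward Castaneus and C57BL/6 numbered 26 and 24, 28 and 23 with TMM, 28 and 24 with DESeq2, and 24 to 26 and 22 to 24 with 1 replicate left out. Without the replicate block they were 17 and 17, beyond 1.5-fold 10 and 11, and among genes with under 50% of their 50-base stretches shared, an alternative chosen after seeing the data, 11 and 15; the last 2 tested a stricter bound or fewer genes. None of the 50 calls changed sign in any fit, 45 were kept in every fit with a replicate left out, and 20 in all planned fits. The calls lost with a replicate left out were those of Rpl21, Rps21, Rps23 and Rps9 without replicate 1, Rps21 without replicate 3, and Rpl21, Rpl32, Rps21 and Rps9 without replicate 4. With RPKM rescaled to the same fixed total in each replicate, which moves the scale by construction, the summed levels were 53329 (large) and 53315 (small). Leaving out a replicate gave 17285 to 18854 RPKM for the large and 17191 to 19014 RPKM for the small subunit, and shares of 50.6% to 51.0% and 44.8% to 45.1%. The share of the large subunit was 54.1% without Rplp0, and that of the small subunit 46.8% as a mean of members' shares and 45.3% scaled by autosomal totals. Calls also varied with depth: of the 22 genes tested on fewer than 5000 allelic reads 4 were called, and 46 of the other 52. Among all autosomal genes tested, 28.1% were called at any depth and 47.1% with at least 5000 reads.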
